A study of Mus musculus with 16 samples.

Results

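Prrx1, Snai2, Twist1, Vim, Fn1, Yap1, Wwtr1, Tead1, Fosl2 and Pdgfra are regulators and markers of the mesenchymal as opposed to the adrenergic state of neuroblastoma. These 10 genes were chosen by symbol out of 24411 genes in the tables, and all 10 passed the filter on low counts that left 16665 genes for testing. RNA-Seq covered 5 groups of mouse samples, 16 samples in all. At 2 weeks of age, celiac ganglia of mice without the MYCN transgene carried wild-type Runx1t1 (n = 4) or were labelled Runx1t1 Heterozygote (n = 3), and at the same age celiac ganglia of MYCN Homozygote mice carried wild-type Runx1t1 (n = 3) or were labelled Runx1t1 Heterozygote (n = 2). The other 4 samples were tumors of MYCN Homozygote mice with wild-type Runx1t1, whose age the labels do not give. The MYCN transgene is a human MYCN cDNA under the tyrosine hydroxylase (Th) promoter, which is active in neuroectodermal cells. The knock-out allele of Runx1t1, which encodes a transcriptional corepressor, came from a separate mouse line in which an insertion inactivates the gene. Mice of both sexes were used. The samples labelled as replicates were not stated to come from separate animals, so the p-values measure the spread between these samples only.

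Neuroblastoma cells are described in 2 states that can convert into each other. Adrenergic cells keep the transcription factors and the catecholamine enzymes of sympathetic neurons, whereas mesenchymal cells resemble neural crest or stromal cells, migrate readily and express extracellular matrix. Prrx1, Snai2 and Twist1 are transcription factors that drive mesenchymal programmes. Yap1 and Wwtr1 (which encodes TAZ) are coactivators that the Hippo kinases keep out of the nucleus and that reach DNA by binding TEAD factors such as Tead1, often beside AP-1 factors such as Fosl2. Pdgfra is a receptor tyrosine kinase of mesenchymal progenitors, Vim encodes the intermediate filament vimentin, and Fn1 encodes the matrix protein fibronectin. In a whole ganglion all of these genes are also used by fibroblasts, glia, endothelium and pericytes. In bulk samples such as these, fewer cells of a type and less RNA per cell cannot be told apart.

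The libraries held 10692291 to 38618760 counts after rounding, the ganglia up to 36337179 and the tumors from 27096031. The 6 libraries below 20000000 were all ganglia. Without the transgene, Runx1t1 itself was not lower in ganglia labelled het. It stood at 2.78, 3.30, 4.41 and 4.19 TPM in the transgene-free wild-type ganglia and at 4.38, 4.36 and 6.28 TPM in those labelled het, so the samples are called labelled het throughout. In MYCN ganglia it stood at 70.3, 7.90 and 37.4 TPM with wild-type Runx1t1 and at 8.83 and 16.9 TPM in those labelled het, which overlapped. Where the counted part of Runx1t1 lies relative to the insertion was not given, and its level is then no check of the deletion. A label that reads Neuroblastoma as the cell type is attached to all 16 samples, ganglia included. Of the transgene-free wild-type ganglia, replicate 2 stood apart, with 884 TPM summed over 8 lymphocyte markers beside 3.94 to 21.0 TPM in the other 15 libraries, and results that rest on it are given with and without it.

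The first question was how the mesenchymal genes stood in MYCN-driven tumors compared with ganglia that never carried the transgene. Of the 10 genes, 6 were lower in tumors than in the 7 transgene-free ganglia and 1, Tead1, was higher (edgeR quasi-likelihood test, Benjamini-Hochberg adjusted p under 0.05), in a comparison where 30.9% of all genes tested were lower and 30.6% higher. The median log2 fold change of the 10 genes was -2.51, beside -0.06 over all genes tested. The same 6 genes lay lower in every tumor than in every transgene-free ganglion in TPM (transcript abundance corrected for length and scaled to 1 total in every library), which held for 30.9% of all genes, and Tead1 lay higher in every tumor, which held for 14.5%. The 7 genes and their values follow by role, with Twist1, Fn1 and Fosl2, which did not pass the test, beside them.

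**Figure D1:**
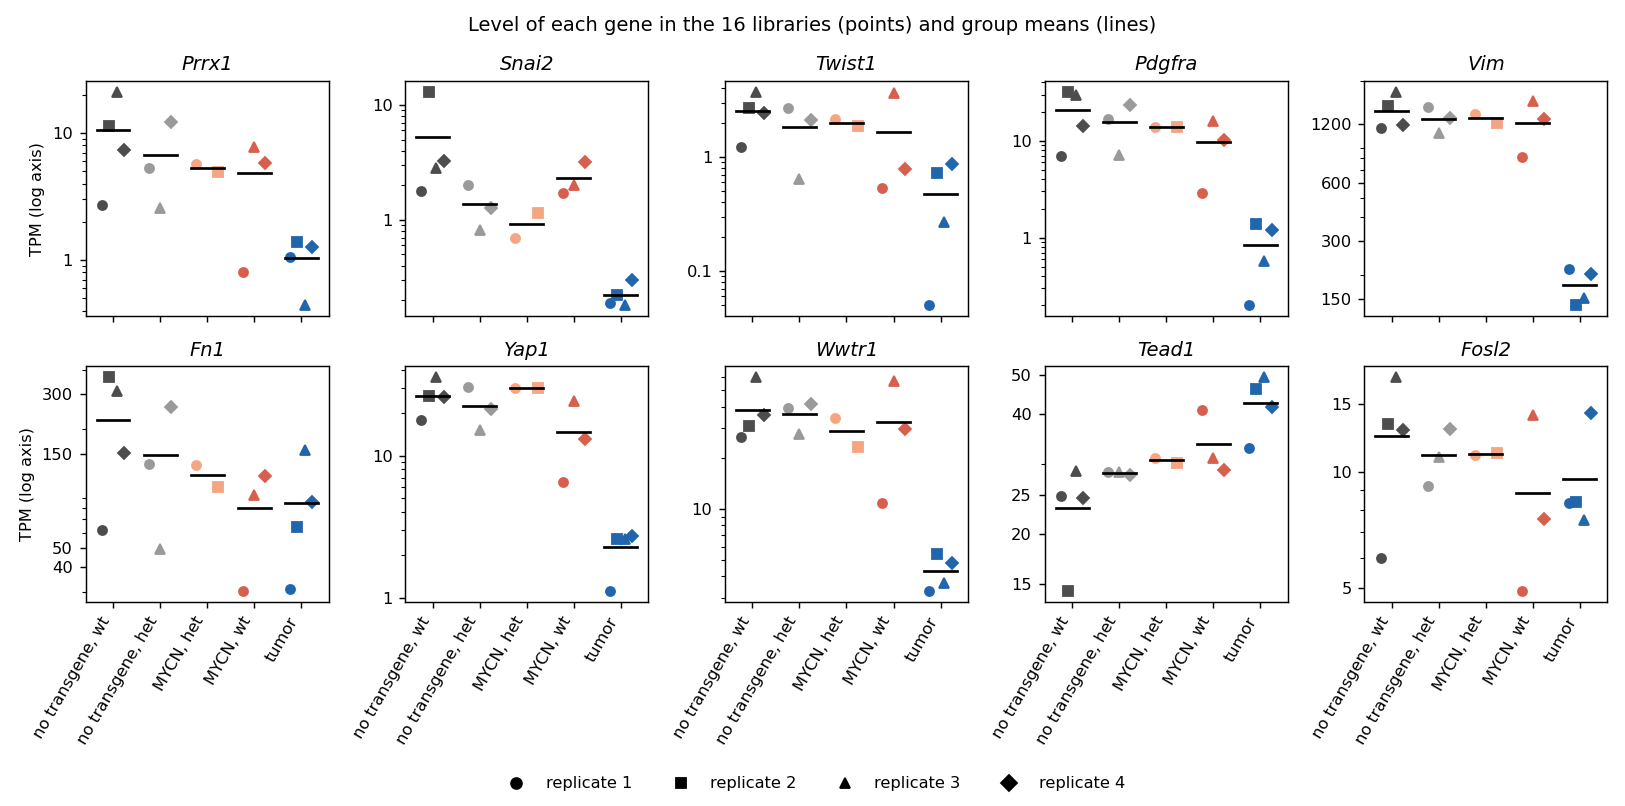
TPM (log axis) of the 10 genes in each of the 16 libraries, 1 panel per gene, with libraries grouped as transgene-free wild-type, transgene-free labelled het, MYCN labelled het, MYCN wild-type and tumor. Each point is 1 library and lines are group means. In the panels for Vim, Yap1, Wwtr1, Pdgfra, Snai2 and Prrx1 the 4 tumors lie below all 7 transgene-free ganglia, in the Tead1 panel they lie above them, and in the Fn1, Fosl2 and Twist1 panels the points overlap.

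Of the transcription factors, Snai2 and Prrx1 were lower in tumors. Snai2 (chr16:14705852-14709385, plus strand, GRCm38), a zinc-finger repressor of epithelial genes that marks delaminating neural crest, stood at 0.19, 0.22, 0.18 and 0.30 TPM in the 4 tumors, which rested on 5 to 11 counts per library. It stood at 1.80, 13.0, 2.80 and 3.22 TPM in transgene-free wild-type ganglia and at 2.02, 0.81 and 1.26 TPM in transgene-free ganglia labelled het. The groups did not overlap, and the highest value belonged to the replicate that stood apart. Snai2 was 8.77-fold lower in tumors (log2 fold change -3.13 ± 0.62 SE, edgeR adjusted p = 0.000587), and without that replicate the log2 fold change was -2.58 and the edgeR adjusted p 0.000164.

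Prrx1 (chr1:163245119-163313710, minus strand), a homeobox factor of limb and craniofacial mesenchyme, stood at 1.05, 1.38, 0.44 and 1.27 TPM in tumors. It stood at 2.69, 11.4, 21.1 and 7.37 TPM in transgene-free wild-type ganglia and at 5.32, 2.56 and 12.1 TPM in those labelled het. Every tumor lay below every transgene-free ganglion, and these ganglia spread 8.25-fold from the lowest to the highest. Prrx1 was 5.82-fold lower in tumors (log2 fold change -2.54 ± 0.67 SE, edgeR adjusted p = 0.00451).

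Twist1 (chr12:33957671-33959829, plus strand), a basic helix-loop-helix factor of cranial mesenchyme, was close to the limit of detection in tumors, with 1 to 25 counts per library. It stood at 0.05, 0.72, 0.27 and 0.86 TPM in tumors, at 1.22, 2.69, 3.73 and 2.45 TPM in transgene-free wild-type ganglia and at 2.71, 0.64 and 2.11 TPM in those labelled het. The lowest ganglion lay below the 2 highest tumors. The difference did not pass the test (log2 fold change -1.69 ± 0.74 SE, edgeR adjusted p = 0.0612). It passed with DESeq2, with limma at both pseudocounts, and without transgene-free labelled het replicate 3, MYCN wild-type replicate 3 or tumor replicate 4. Without those libraries the log2 fold changes were -1.90, -1.69 and -2.13, and the adjusted p ranged from 0.00758 to 0.136 over the alternatives.

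The relatives of these factors did not move as 1 group. Snai1 (log2 fold change -0.45), Zeb1 (-0.08) and Prrx2 (-1.51) did not pass the edgeR test, while Zeb2, a zinc-finger repressor that also acts in neurons, fell by 1.21 on the log2 scale (edgeR adjusted p = 0.00956). Twist2 had a log2 fold change of 1.70 (edgeR adjusted p = 0.0973), with 1 tumor at 19.7 TPM. Among 8 other epithelial-mesenchymal transition factors tested, Snai1, Twist2, Prrx2, Zeb1 and Zeb2 included, 1 rose and 3 fell, with a median log2 fold change of -0.83 beside -0.06 over all genes. Tcf4, an E protein that also acts in neural progenitors, rose from 34.95 to 166 TPM (log2 fold change 2.68 ± 0.22 SE), and Foxc2, a forkhead factor of mesoderm, fell from 3.87 to 0.435 TPM (log2 fold change -2.65 ± 0.57 SE). Sox9, a factor of neural crest and cartilage, fell by 1.72 on the log2 scale. Of 23 other mesenchymal-state transcription factors, 10 fell and none rose, with a median of -1.19, or -0.86 without the ganglion that stood apart. Those with the largest falls were Egr3 (log2 fold change -4.13), Meox2 (-3.94), Tbx18 (-2.50) and Id1 (-2.24), respectively a zinc-finger factor of the early growth response, homeobox and T-box factors of mesoderm, and an inhibitor of basic helix-loop-helix factors.

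The coactivators Yap1 and Wwtr1 fell together, while their DNA-binding partner Tead1 rose. Yap1 (chr9:7931999-8004596, minus strand) stood at 1.12, 2.61, 2.59 and 2.72 TPM in tumors. It stood at 17.8, 26.2, 35.6 and 25.9 TPM in transgene-free wild-type ganglia and at 30.4, 15.1 and 21.1 TPM in those labelled het. No tumor reached the level of any ganglion. Yap1 was 7.92-fold lower in tumors (log2 fold change -2.98 ± 0.37 SE, edgeR adjusted p = 1.33e-05).

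Wwtr1 (chr3:57455649-57575910, minus strand) stood at 3.29, 5.40, 3.64 and 4.83 TPM in tumors. It stood at 26.7, 30.7, 59.8 and 35.8 TPM in transgene-free wild-type ganglia and at 39.1, 27.6 and 41.4 TPM in those labelled het. The tumors were again all below the ganglia. Wwtr1 was 6.39-fold lower (log2 fold change -2.68 ± 0.38 SE, edgeR adjusted p = 3.51e-05).

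Tead1 (chr7:112679318-112906807, plus strand) went the other way, at 32.7, 46.1, 49.4 and 41.5 TPM in tumors. It stood at 24.9, 14.4, 28.7 and 24.6 TPM in transgene-free wild-type ganglia and at 28.6, 28.6 and 28.0 TPM in those labelled het. Every tumor lay above every transgene-free ganglion, and the lowest ganglion was the replicate that stood apart. Tead1 was 2.23-fold higher in tumors (log2 fold change 1.16 ± 0.17 SE, edgeR adjusted p = 5.03e-05), and 1.09 on the log2 scale without that replicate.

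The Tead1 difference was also taken on the TPM scale, which gives every library the same total. The limma fit used for this changed the test and the transform as well as the scaling. With limma on log2(TPM + 1) the median of all genes in tumors against transgene-free ganglia moved from -0.06 to -0.35, and the calls over all genes split into 3251 higher and 7049 lower in place of 5095 and 5145. On that scale the Tead1 difference was 0.71, which is 1.05 above the median of all genes, and it remained past the threshold (limma adjusted p = 0.00339). With edgeR it lay 1.21 above the median of all genes.

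As TPM accounts for transcript length, the coactivators and the TEAD factors could be set against each other within a library. The sum of Yap1 and Wwtr1 was 4.41 to 8.01 TPM in tumors and 42.7 to 95.4 TPM in transgene-free ganglia. The sum of Tead1 to Tead4 overlapped, at 37.0 to 56.4 TPM in tumors and 35.8 to 67.3 TPM in transgene-free ganglia. The ratio of the coactivator sum to the TEAD sum was 0.119, 0.151, 0.110 and 0.146 in the tumors (mean 0.132 ± 0.0200 SD, n = 4) and 0.924 to 1.59 in the transgene-free ganglia (mean 1.28 ± 0.203 SD, n = 7). Within the TEAD sum, Tead1 made up 80.5% to 88.4% in tumors and 40.2% to 67.6% in transgene-free ganglia. Of the other TEAD genes, Tead3 (log2 fold change -1.51, edgeR adjusted p = 0.0100) and Tead4 (-1.83, edgeR adjusted p = 0.0396, and 0.0518 without the ganglion that stood apart) fell, and Tead2 did not pass (-1.06, edgeR adjusted p = 0.0576).

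**Figure D2:**
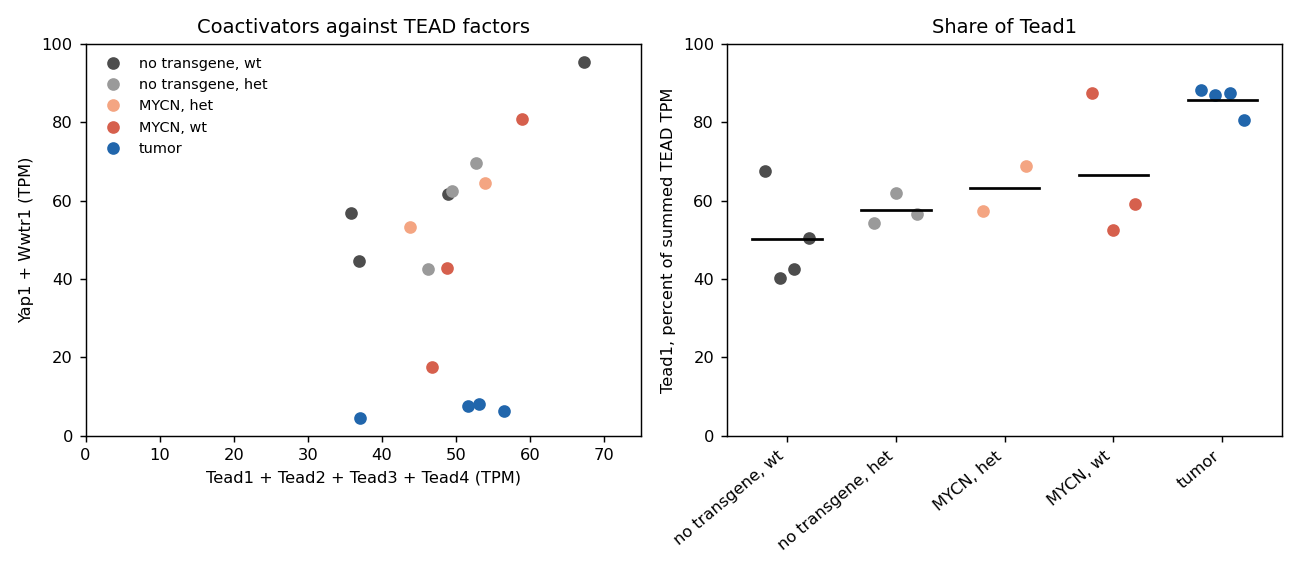
Left, the sum of Yap1 and Wwtr1 plotted against the sum of Tead1 to Tead4 in each library, both in TPM. Right, the share of Tead1 in the TEAD sum, in percent, by group, with each point 1 library and lines at group means. The 4 tumors lie at 4.41 to 8.01 TPM of coactivator, apart from the transgene-free ganglia at 42.7 to 95.4 TPM, while their TEAD levels overlap.

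Vgll3, a cofactor that binds TEAD proteins in competition with YAP, fell from 33.7 to 0.975 TPM (log2 fold change -4.64 ± 0.66 SE, edgeR adjusted p = 3.96e-05), while Vgll4, which inhibits TEAD, had a log2 fold change of 0.07. Of 19 Hippo kinases and scaffolds, which restrain YAP and TAZ, 4 rose and 6 fell, with a median log2 fold change of 0.13. Over all genes tested 30.6% rose and 30.9% fell. The scaffold gene Wwc1 rose from 7.73 to 57.3 TPM (log2 fold change 3.31 ± 0.34 SE), whereas Frmd6 (-3.16), the kinase gene Lats2 (-2.44) and the scaffold gene Wwc2 (-2.33) fell. Of 21 genes known as targets of YAP, TAZ and TEAD, 11 fell and 1 rose, with a median of -0.72. The coagulation factor receptor F3 (-3.70), the guanine exchange factor Dock5 (-3.27) and the growth factor Tgfb2 (-2.46) fell most, with Lats2, itself a feedback target, next. Without the ganglion that stood apart, 7 Hippo genes rose and 6 fell, and 2 targets rose and 9 fell. Gadd45a, a stress gene that responds to DNA damage, was the target that rose with all libraries (0.78) and was named after its value was seen.

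Promoter sequences are printed for Yap1, Wwtr1 and Prrx1, which fell in tumors and whose promoters hold the core of the TEAD recognition sequence. They run from 250 bases before to 50 bases after the annotated start, 5′ to 3′ on the gene's strand, from RefSeq on GRCm38.p6. Capitals mark GGAATG, read 5′ to 3′ on the printed strand, and in Yap1 also CACGTG, the recognition sequence of MYC with its partner MAX. Yap1 lies at chr9:8004547-8004846, Wwtr1 at chr3:57575861-57576160 and Prrx1 at chr1:163313601-163313900, all on the minus strand.
Yap1: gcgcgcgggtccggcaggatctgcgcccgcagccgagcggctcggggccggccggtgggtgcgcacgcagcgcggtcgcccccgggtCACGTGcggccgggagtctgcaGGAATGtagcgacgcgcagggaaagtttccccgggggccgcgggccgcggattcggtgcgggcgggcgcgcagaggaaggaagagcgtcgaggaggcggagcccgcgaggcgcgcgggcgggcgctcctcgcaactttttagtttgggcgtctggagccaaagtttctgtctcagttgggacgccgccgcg
Wwtr1: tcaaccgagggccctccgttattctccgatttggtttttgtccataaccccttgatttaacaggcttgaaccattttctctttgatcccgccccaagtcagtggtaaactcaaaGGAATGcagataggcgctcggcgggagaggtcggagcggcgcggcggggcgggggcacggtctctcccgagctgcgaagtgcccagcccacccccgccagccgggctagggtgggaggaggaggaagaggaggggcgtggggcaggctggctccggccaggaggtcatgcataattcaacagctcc
Prrx1: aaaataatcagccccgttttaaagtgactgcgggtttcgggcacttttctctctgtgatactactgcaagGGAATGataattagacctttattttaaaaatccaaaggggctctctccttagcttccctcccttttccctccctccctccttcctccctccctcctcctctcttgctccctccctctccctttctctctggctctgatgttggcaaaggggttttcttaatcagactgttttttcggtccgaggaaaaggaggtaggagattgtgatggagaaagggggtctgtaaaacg

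Of the 10 genes, 7 had 8 promoters in the table, 2 of which were overlapping starts of Wwtr1. GGAATG on either strand lay in 4 of the 8, beside 14.7% of 32851 promoters of the same length. The 2 Wwtr1 windows hold the same site, so these are 3 of 7 genes. Vim and Pdgfra, which also fell in tumors, held no GGAATG, nor did Twist1 and Fosl2. CACGTG, which is 1 form of the general E-box CANNTG, lay in 1 of the 8 beside 7.15%. The AP-1 sequence TGANTCA lay in 0 of the 8 beside 7.81%, and CANNTG, bound by basic helix-loop-helix factors such as Twist1 and in part by Snai2, lay in 2 of the 8 beside 72.3%. In the Yap1 promoter, with a GC content of 74%, CACGTG starts at base 88 and GGAATG at base 110, and in Prrx1, with 47.7% GC, GGAATG starts at base 71. These matches describe letters in a window and are not binding data.

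Fosl2 (chr5:32135801-32157842, plus strand), an AP-1 subunit of the Fos family, did not differ detectably between tumors and ganglia. It stood at 8.30, 8.39, 7.50 and 14.3 TPM in tumors, at 5.99, 13.3, 17.7 and 12.9 TPM in transgene-free wild-type ganglia and at 9.23, 10.9 and 13.0 TPM in those labelled het. The groups overlapped throughout, and the tumor at 14.3 TPM was the only one above 8.39. The log2 fold change was 0.14 ± 0.30 SE (edgeR adjusted p = 0.693), and it was negative in TPM, with a difference of -0.26 on the log2(TPM + 1) scale. Of 9 other AP-1 subunits tested, 3 rose and none fell, with a median of 0.26, where 30.6% of all genes rose and 30.9% fell. Batf3 had a log2 fold change of 2.17 ± 0.88 SE (edgeR adjusted p = 0.0453) and Atf3, a stress-induced factor, 1.12 ± 0.46 SE (edgeR adjusted p = 0.0498). Without the ganglion that stood apart these were 2.74 and 1.05, and Atf3 no longer passed (edgeR adjusted p = 0.0640). Jun, the main partner of Fos proteins, rose by 0.57 ± 0.12 SE on the log2 scale (edgeR adjusted p = 0.00105), with mean levels of 117 TPM in tumors and 106 TPM in transgene-free ganglia.

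Pdgfra (chr5:75152292-75198215, plus strand) had the largest fold change of the 10 genes. It stood at 0.20, 1.40, 0.57 and 1.2 TPM in tumors, from 19 to 183 counts per library. It stood at 6.92, 32.1, 29.95 and 14.2 TPM in transgene-free wild-type ganglia and at 17.0, 7.16 and 23.2 TPM in those labelled het. All tumors were below all ganglia, and the ganglia spread 4.64-fold among themselves. Pdgfra was 15.8-fold lower in tumors (log2 fold change -3.98 ± 0.68 SE, edgeR adjusted p = 0.000164), and at -3.79 without the ganglion that stood apart, which held its highest value. Of the 5 other genes of the PDGF system, 3 fell and none rose. The ligand Pdgfa, which signals through this receptor, fell from 63.1 to 7.82 TPM (log2 fold change -2.57 ± 0.29 SE, edgeR adjusted p = 5.55e-06). Pdgfb (-1.07, edgeR adjusted p = 0.0482) and the pericyte receptor Pdgfrb (-1.20, edgeR adjusted p = 0.0366) fell less, and neither passed without the ganglion that stood apart (-0.95 and -1.15, edgeR adjusted p = 0.0746 and 0.0515). Pdgfc, the other main ligand of the receptor, had a log2 fold change of 0.10, and Pdgfd one of -1.68 that did not pass (edgeR adjusted p = 0.121).

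Vim (chr2:13573927-13582826, plus strand) was the most highly expressed of the 10 genes in every library except where Fn1 exceeded it in 1 tumor. It stood at 215, 139.5, 152 and 202 TPM in tumors. It stood at 1144, 1487, 1762 and 1184 TPM in transgene-free wild-type ganglia and at 1462, 1077 and 1295 TPM in those labelled het. Its spread over the transgene-free ganglia, 1.64-fold, was the smallest of the 10. Vim was 5.56-fold lower in tumors (log2 fold change -2.47 ± 0.21 SE, edgeR adjusted p = 1.08e-06).

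Of 12 other intermediate filament genes, 3 rose and 4 fell, beside 30.6% and 30.9% of all genes, with a median log2 fold change of 0.31. The keratins Krt18 (log2 fold change 5.11) and Krt8 (4.98), filaments of simple epithelia, and Nefm (1.73), a neurofilament, rose, the keratins from 1.04 and 1.39 TPM to 26.6 and 30.3 TPM. Prph, the filament of peripheral neurons, fell from 3261 to 5.08 TPM (log2 fold change -8.90 ± 0.72 SE). Synm (-3.64), which assembles with vimentin, Nes (-1.78), a filament of progenitor cells, and the neurofilament Nefh (-0.76) fell as well.

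Fn1 (chr1:71585520-71653200, minus strand) did not follow Vim. It stood at 31.1, 64.2, 158 and 85.7 TPM in tumors, at 61.8, 366, 313 and 152 TPM in transgene-free wild-type ganglia and at 133, 49.7 and 259 TPM in those labelled het. The groups overlapped, since the lowest ganglion at 49.7 TPM lay below 3 of the 4 tumors. The log2 fold change was -0.70 ± 0.56 SE (edgeR adjusted p = 0.293), and -0.48 without the replicate that stood apart, which held the highest value. The ratio of Vim to Fn1 was 0.965 to 6.93 in tumors and 4.06 to 21.6 in transgene-free ganglia.

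Most genes tested that receive and organise fibronectin fell. Of 15 integrins, adhesion adaptors and other partners of fibronectin, 12 fell and none rose, with a median log2 fold change of -1.73. Parva, an actin-binding adaptor of integrin adhesions, fell from 621 to 22.3 TPM (log2 fold change -4.37 ± 0.30 SE), and the integrin subunits Itgb8 (-3.22) and Itgb3 (-3.15) and the adaptor vinculin, Vcl (-2.13), fell too. Of 28 mesenchymal matrix and surface genes, 20 fell, with a median of -2.39. The small proteoglycan Lum (-4.56), the cadherin Cdh11 (-4.16), the collagenase Mmp2 (-4.02) and the matrix protein Tnc (-3.46) had the largest changes. Without the ganglion that stood apart, 11 of the 15 and 18 of the 28 fell, with medians of -1.35 and -2.41. Of 12 genes of TGF-beta signalling, which drives mesenchymal conversion, 6 fell and 2 rose, with a median of -1.29. Without the ganglion that stood apart 6 fell and 2 rose as well, with a median of -0.77. The coreceptor Tgfbr3 (-2.81), Tgfb2, the inhibitory Smad7 (-1.87) and Ltbp1 (-1.68), which stores the ligand in matrix, fell, while the receptor Tgfbr1 rose from 16.4 to 27.5 TPM and Smad4 from 47.9 to 64.1 TPM.

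**Figure D3:**
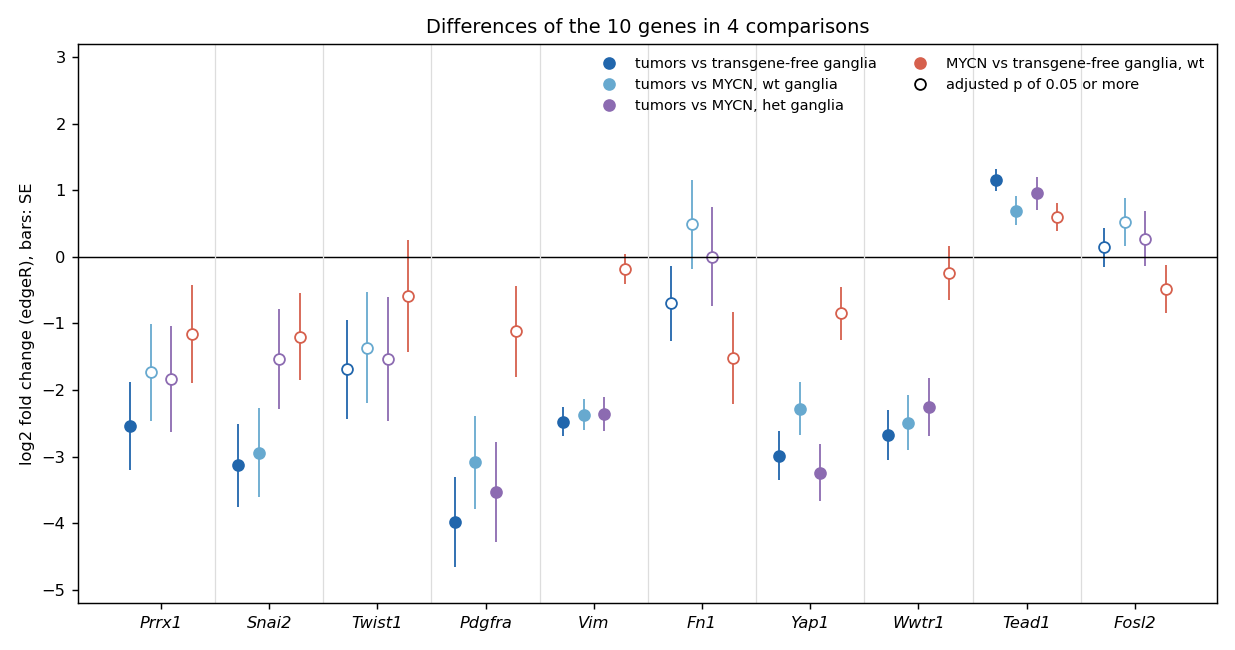
Log2 fold changes of the 10 genes in 4 comparisons (edgeR), with bars of 1 SE. Filled points have an adjusted p under 0.05 and open points do not. In tumors against transgene-free ganglia 6 filled points lie below 0 and Tead1 is the filled point above it, and in MYCN against transgene-free ganglia no point is filled.

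The opposite, adrenergic state was not uniformly higher in tumors. Of 17 adrenergic-state genes, 9 rose and 6 fell, with a median log2 fold change of 0.87. Insm1 (7.90, and 8.54 without the ganglion that stood apart) and Sox11 (4.05), factors of immature sympathetic neuroblasts, rose, the first from 0.694 to 91.4 TPM and the second from 8.16 to 101 TPM. Hand1 (-5.43), a sympathetic transcription factor, and Dbh (-4.30), the enzyme that makes noradrenaline, fell.

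Markers of the stromal and glial cells of a ganglion moved with the 6 lower genes. The 10 fibroblast markers include none of the 10 genes. Their summed level was 144 to 357 TPM in tumors and 1000.5 to 4864 TPM in transgene-free ganglia, and 9 fell (median log2 fold change -3.10). Col1a1, Col1a2, Dcn and Lum of these markers are also in the matrix list above, and Tcf21 is in that of mesenchymal-state factors. The pericyte and neuronal markers share genes with the lists above too, so the lists are not separate. Of 12 markers of satellite glia and Schwann cells, 11 fell (median -5.11), with sums of 78.1 to 221 TPM in tumors and 821 to 2664 TPM in transgene-free ganglia. The sum of 9 endothelial markers was 49.0 to 109 TPM in tumors and 92.6 to 733 TPM in transgene-free ganglia, and 6 fell. The sum of 10 pericyte and smooth muscle markers overlapped, at 46.5 to 262 TPM and 105.1 to 525 TPM, and 3 fell. The sum of 8 macrophage markers was 211 to 636 TPM in tumors and 45.4 to 579 TPM in transgene-free ganglia, and 4 rose. Among these defining markers 1 fibroblast marker and 1 glial marker were at 0, each in 1 tumor, and no endothelial, pericyte or macrophage marker was at 0 in any tumor. Markers of sympathetic neurons fell too, 11 of 12 with 1 higher, from sums of 10329 to 28723 TPM to 2820 to 4364 TPM. Of 6 adrenal cortex markers tested 5 fell, from sums of 6.48 to 101 TPM to 3.05 to 5.61 TPM. Without the ganglion that stood apart, the transgene-free macrophage sums reached only 139 TPM and no longer overlapped the tumors, with 6 of the 8 markers higher, the endothelial sums reached 421 TPM, with 5 markers lower, 1 pericyte marker was lower, and the glial, neuronal and adrenal cortex sums began at 2021, 17429 and 10.5 TPM. The part of cell composition in the lower levels of the 6 genes was not tested.

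**Figure D4:**
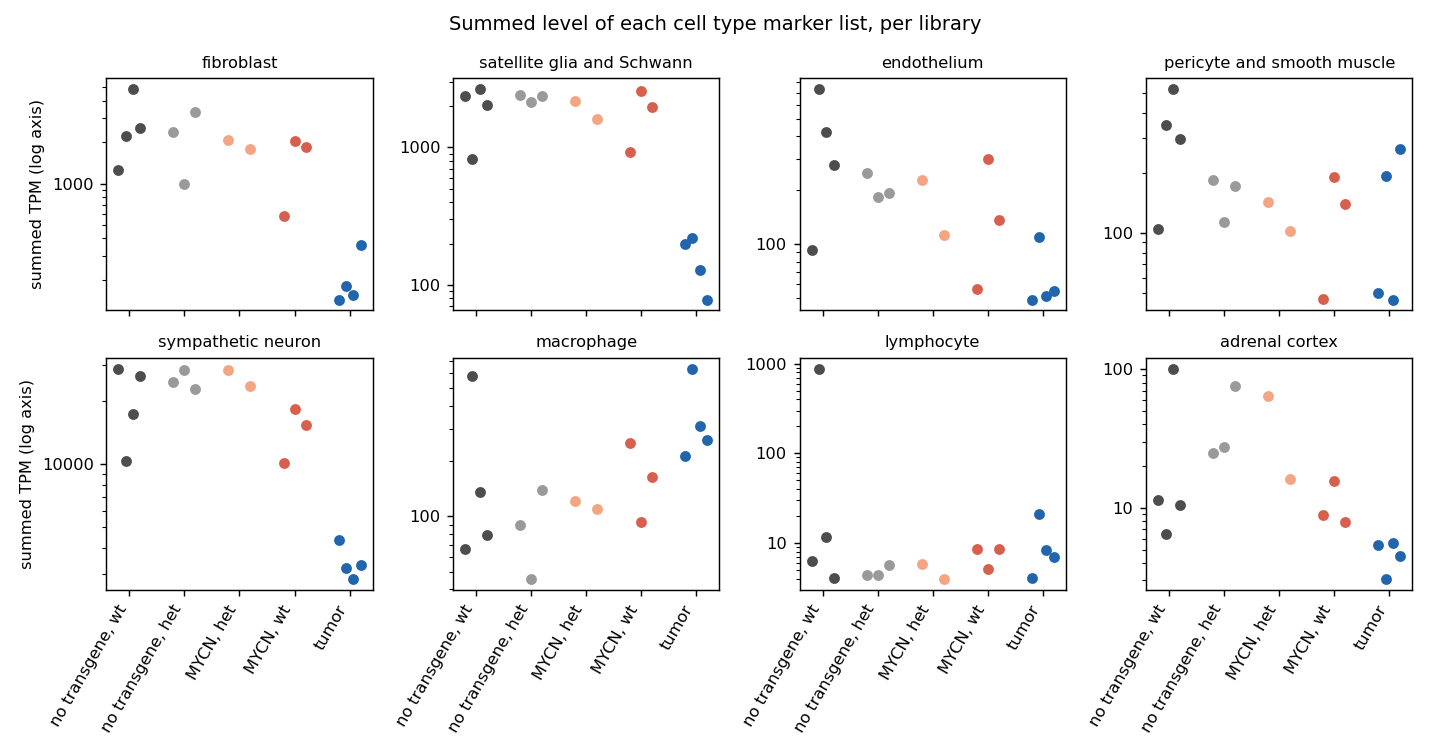
Summed TPM (log axis) of fixed marker genes of each cell type, 1 panel per cell type, in each of the 16 libraries by group. Each point is 1 library. The 4 tumors lie at 144 to 357 TPM for fibroblast markers, below the transgene-free ganglia at 1000.5 to 4864 TPM, and 1 transgene-free wild-type ganglion stands at 884 TPM of lymphocyte markers.

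Tumors were next compared with ganglia that carried the same transgene. Against MYCN ganglia with wild-type Runx1t1, 5 of the 10 genes were lower and 1 higher (edgeR), where 20.5% of all genes were lower and 14.0% higher. Markers of 3 cell types moved with them, as 11 of 12 glial, 6 of 10 fibroblast and 10 of 12 neuronal markers were lower and none higher. Of 9 endothelial and 10 pericyte and smooth muscle markers, 1 each was lower and none higher. Of 8 macrophage markers none passed in either direction. The part of cell composition in this comparison was not tested. The ganglia of this comparison stood at 807.6, 1573 and 1275 TPM for Vim, at 6.56, 24.3 and 13.2 TPM for Yap1 and at 10.9, 56.6 and 29.8 TPM for Wwtr1. Each lay above every tumor, as 32.8% of all genes did. Vim was 5.18-fold lower in tumors (log2 fold change -2.37 ± 0.23 SE, edgeR adjusted p = 1.18e-05) and Yap1 4.86-fold (-2.28 ± 0.40 SE, adjusted p = 0.000785). Wwtr1 was 5.62-fold lower (-2.49 ± 0.41 SE, edgeR adjusted p = 0.000546), with a log2 fold change of -1.84 when MYCN wild-type replicate 3, its highest ganglion, was left out.

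Pdgfra stood at 2.88, 16.1 and 10.3 TPM in these ganglia and was 8.51-fold lower in tumors (log2 fold change -3.09 ± 0.70 SE, edgeR adjusted p = 0.00417). Snai2 stood at 1.71, 2.02 and 3.16 TPM and was 7.70-fold lower in tumors (-2.94 ± 0.67 SE, edgeR adjusted p = 0.00437). Prrx1 stood at 0.80, 7.78 and 5.84 TPM, overlapping the tumors, and did not pass (-1.74, edgeR adjusted p = 0.0778). It passed with a depth term, with DESeq2 and without MYCN wild-type replicate 1, the ganglion at 0.80 TPM (-2.21), and the adjusted p ranged from 0.0209 to 0.298 over the alternatives. Twist1 (-1.36), Fosl2 (0.53) and Fn1 (0.49) did not pass either, with edgeR adjusted p of 0.224, 0.280 and 0.601.

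Tead1 was 1.62-fold higher in tumors than in these ganglia (log2 fold change 0.69 ± 0.21 SE, edgeR adjusted p = 0.0226), but its TPM overlapped, at 40.9, 30.9 and 28.9 in the ganglia and 32.7 to 49.4 in the tumors. The call was lost with limma on log2(TPM + 1), where the difference was 0.33 against a median of -0.29 over all genes. It was also lost with limma on log2(TPM + 0.1), at 0.34, with only the groups compared, at 0.70, and without MYCN wild-type replicate 3 or 4 or tumor replicate 2 or 3, where the log2 fold change was 0.60, 0.56, 0.64 and 0.64. The adjusted p ranged from 0.00364 to 0.267 over the alternatives.

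Against MYCN ganglia labelled het, 4 genes were lower and Tead1 higher (edgeR), where 23.5% of all genes were lower and 22.0% higher. Here too 11 of 12 glial, 6 of 10 fibroblast and 11 of 12 neuronal markers were lower in tumors and none of these higher. Of 9 endothelial and 10 pericyte and smooth muscle markers, 1 each was lower and none higher. Of 8 macrophage markers 1 was higher and none lower. The part of cell composition was again not tested. These 2 ganglia stood at 30.03 and 30.05 TPM for Yap1, 34.5 and 23.3 TPM for Wwtr1, 1360.1 and 1222 TPM for Vim and 14.0 and 13.8 TPM for Pdgfra, all above every tumor, as 45.5% of all genes were. Yap1 was 9.46-fold lower in tumors (log2 fold change -3.24 ± 0.43 SE, edgeR adjusted p = 6.60e-05), and Pdgfra 11.6-fold (-3.53 ± 0.75 SE, adjusted p = 0.00181). Vim was 5.15-fold lower (-2.36 ± 0.25 SE, edgeR adjusted p = 1.12e-05) and Wwtr1 4.77-fold (-2.25 ± 0.44 SE, adjusted p = 0.00106). Tead1, at 30.96 and 30.1 TPM, was 1.94-fold higher in tumors (0.95 ± 0.25 SE, edgeR adjusted p = 0.00675), and this call was lost without MYCN labelled het replicate 1, at the same 0.95, and with limma on log2(TPM + 1) and log2(TPM + 0.1), at 0.45 and 0.46. The adjusted p ran from 0.000903 to 0.164 over the alternatives.

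Snai2, at 0.69 and 1.15 TPM, lay above every tumor but did not pass (-1.53, edgeR adjusted p = 0.109). It passed without the transgene-free ganglion that stood apart, at a log2 fold change of -1.52, and with limma on log2(TPM + 0.1), and the adjusted p ranged from 0.0292 to 0.558 over the alternatives. Prrx1, at 5.71 and 4.97 TPM (-1.84, edgeR adjusted p = 0.0735), did not pass. It passed with a depth term (-2.99), with only the groups compared, with DESeq2, with limma on log2(TPM + 0.1) and without MYCN wild-type replicate 1, and its adjusted p ranged from 0.0184 to 0.216. Twist1 (-1.53), Fosl2 (0.27) and Fn1 (0.01) did not pass, with edgeR adjusted p of 0.196, 0.620 and 0.997. With limma on log2(TPM + 0.1) Twist1 passed at -2.19, and its adjusted p ranged from 0.0441 to 0.415 over the alternatives. The 3 comparisons of tumors share the 4 tumor libraries, so their values are set side by side and are not independent of each other.

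Whether the transgene alone moved these genes in ganglia was asked at 2 weeks of age. With wild-type Runx1t1, none of the 10 genes passed the edgeR test between MYCN and transgene-free ganglia, where 0.936% of all genes did, and DESeq2 called none of the 10 among 1276 genes in all. The 156 edgeR calls over all genes became 0 to 1811 with a library left out, the highest without MYCN wild-type replicate 3. The log2 fold changes of the 10 genes ran from -1.52 to 0.60. An unadjusted p under 0.05 was found for 2 of the 10, beside 3302 of all 16665 genes. Fn1 stood at 30.4, 92.9 and 116 TPM in the MYCN ganglia, overlapping the transgene-free wild-type ganglia at 61.8 to 366 TPM (-1.52 ± 0.69 SE, edgeR adjusted p = 0.244). Tead1, at 40.9, 30.9 and 28.9 TPM, lay above all 7 transgene-free ganglia, the highest of which stood at 28.7 TPM, as 3.35% of all genes did (0.60 ± 0.21 SE, edgeR adjusted p = 0.147). Yap1, with a log2 fold change of -0.84 ± 0.40 SE, passed only without MYCN wild-type replicate 3, where it was -1.39, and its adjusted p ranged from 0.0458 to 0.746 over the alternatives. Of the lists above, 1 gene each passed among the YAP and TAZ targets, where Asap1, a regulator of adhesion turnover, fell by 0.72 ± 0.14 SE on the log2 scale (edgeR adjusted p = 0.0397), and among the adrenergic genes, where Sox11 rose by 2.91 ± 0.57 SE (edgeR adjusted p = 0.0379). Both calls were lost, with no gene of any kind called, under the replicate block, with only the groups compared, and without transgene-free wild-type replicate 1, 3 or 4 or MYCN wild-type replicate 1 or 4.

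The 3 MYCN ganglia with wild-type Runx1t1 differed among themselves. In replicate 1, 8 of the 10 genes lay below every transgene-free ganglion, where 31.0% of all genes did, and Tead1 lay above, where 23.3% did. Only Snai2, at 1.71 TPM, was within the transgene-free range. In replicate 3 none lay below (7.78% of all genes) and in replicate 4 only Yap1 did (11.6%), while Tead1 lay above in both (11.2% and 20.1%). The ratio of Yap1 and Wwtr1 to the TEAD sum was 0.373 in replicate 1 beside 1.37 and 0.879 in the others, and Tead1 made up 87.6% of the TEAD sum beside 52.6% and 59.2%. Markers of several other cell types were low in that library as well. Its fibroblast markers summed to 585 TPM, its endothelial markers to 55.9 TPM, its pericyte markers to 46.6 TPM and its neuronal markers to 10159 TPM, each below all transgene-free ganglia, while its glial sum of 932 TPM lay above that of 1 of them only, the ganglion that stood apart, and below 2021 TPM, the lowest of the other 6. Its macrophage sum of 251 TPM was above 6 of the 7 transgene-free ganglia and the highest of the 5 MYCN ganglia. Its Runx1t1 level of 70.3 TPM was the highest of the 16 libraries. The part of cell composition in these low values was not tested.

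In ganglia labelled het, none of the 10 genes passed between MYCN and transgene-free ganglia (edgeR, 0% of all genes, and none among 14 genes called by DESeq2). Their log2 fold changes ran from -0.59 to 0.40. None of the 10 had an unadjusted p under 0.05, beside 242 of all 16665 genes. Of the 2 MYCN ganglia labelled het, replicate 1 had Snai2 below every transgene-free ganglion (5.30% of all genes) and replicate 2 had Wwtr1 below (7.63%), and in both Tead1 lay above (13.6% and 13.3%). All 5 MYCN ganglia thus lay above all 7 transgene-free ganglia in Tead1 TPM, as 0.528% of all genes did, by a margin of 28.9 against 28.7 TPM. Neither comparison passed the test, and the edgeR log2 fold change in ganglia labelled het was 0.06.

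The Runx1t1 label made no difference that passed. Between MYCN ganglia labelled het and wild-type none of the 10 passed (edgeR, 0.0120% of all genes, and none among 253 genes called by DESeq2). At an unadjusted p under 0.05 there were none of the 10 and 2094 of all 16665 genes. Without MYCN wild-type replicate 3 the edgeR calls over all genes went from 2 to 320, none of them among the 10. Yap1 had the lowest p there, at 30.03 and 30.05 TPM in ganglia labelled het beside 6.56, 24.3 and 13.2 TPM in wild-type ganglia. The ganglia labelled het lay above the others, as they did for 20.9% of all genes (log2 fold change 0.96 ± 0.46 SE, edgeR adjusted p = 0.404). Snai2 went the other way without overlap, at 0.69 and 1.15 TPM beside 1.71, 2.02 and 3.16 TPM (log2 fold change -1.41 ± 0.82 SE, edgeR adjusted p = 0.491), as 10.6% of all genes did. Between transgene-free ganglia labelled het and wild-type none passed (0% of all genes, and none of 2 genes called by DESeq2). At an unadjusted p under 0.05 there were 687 of all 16665 genes and 1 of the 10. This was Snai2, with a log2 fold change of -2.02 ± 0.68 SE (edgeR adjusted p = 0.993), which was -0.95 without the wild-type ganglion that stood apart. The interaction of transgene and Runx1t1 label also left none (edgeR, 0% of all genes, and none of 30 genes called by DESeq2). None of the 10 had an unadjusted p under 0.05, beside 937 of all 16665 genes. The estimate for Yap1 was 1.24 ± 0.61 SE on the log2 scale (edgeR adjusted p = 0.845).

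Genes whose levels ran most like each of the 10 were found by the root mean square difference of z-scored log2(TPM + 1) over 16 libraries, among 14747 genes with a mean of at least 1 TPM, where 0 is an identical pattern. The nearest were Uaca for Wwtr1 (0.13), Itm2a for Vim (0.13), Fzd7 for Yap1 (0.14) and Snx33 for Pdgfra (0.15), followed by Dab2 for Prrx1 (0.24). Fn1 was nearest to C1ra (0.28), Twist1 to Rapgef3 (0.33), Tead1 to Zfp536 (0.35), Snai2 to Zbtb1 (0.37) and Fosl2 to Nupr1 (0.55), the loosest match of the 10. Over the 12 ganglia alone the nearest gene was the collagen Col6a2 for Prrx1 (0.15), the matrix protein Sparc for Wwtr1 (0.14), Scara3 for Fn1 (0.20), the fibroblast protease Fap for Pdgfra (0.22) and Rarres2 for Vim (0.25). It was BC029722 for Yap1 (0.25), Neat1 for Fosl2 (0.27), Tsku for Snai2 (0.28), Wbscr17 for Tead1 (0.31) and Snhg18 for Twist1 (0.36). With a pseudocount of 0.1, all 3 nearest genes over 16 libraries were shared for Fn1, Yap1 and Tead1, 2 of 3 for Prrx1, Wwtr1 and Fosl2 and 1 of 3 for the other 4. The points share groups and libraries, so these distances are descriptions.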

How the data were processed

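RNA-Seq was analysed from 16 samples. The authors deposited expected counts per gene and TPM, which their processing notes tie to STAR, SAMtools and RSEM on mm10. The annotation and strand setting were not given in the sources used here. Per the labels the RNA is polyA, while the methods name a total RNA kit. Hom in the column headers was read as homozygous wild type. No column was left unmapped. Human MYCN has no row and was not analysed here.

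Expected counts were rounded and fitted over all 5 groups with edgeR 4.0.16 in R 4.3.3 (filterByExpr, TMM, quasi-likelihood test, 8 contrasts, Benjamini-Hochberg threshold 0.05 over 16665 genes). Scripts were tested on simulated data. The 10 genes and all lists were chosen with earlier results of these data known. All 10 are named, as are relatives of each and the nearest genes in pattern. Of each list up to 4 genes are named (largest change, adjusted p under 0.05, mean TPM at least 1). Nefm, Nes, Nefh, Tgfbr1, Smad4 and Gadd45a also passed and were named outside this rule, after their values were seen. Lists leave out the 10 genes, and 1 result of a list is not reported here. Gene coordinates are from GENCODE on GRCm38. Each comparison was repeated under 25 alternatives, with limma 3.58.1, DESeq2 1.42.0, another normalization, 2 count filters, a replicate block, a depth term, only the groups compared, and each of 16 libraries left out. Any 2 libraries had equal counts at no more than 2.15% of genes.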

Additional observations from a re-analysis of the deposited data

Results flagged for a closer look

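In each group of 4 libraries, the gap between an extreme value and its neighbour was compared with the whole range of the group, for 20 sets of the 10 genes, and chance alone would pick out about 1 in 20. Snai2 at 13.03 TPM in transgene-free wild-type replicate 2 lay far above the other 3 ganglia of its group, in the library that also held the lymphocyte markers. Yap1 at 1.12 TPM in tumor replicate 1 lay far below the other 3 tumors. Fosl2 at 14.25 TPM in tumor replicate 4 lay far above the other 3 tumors.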

How the results depend on the processing

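In tumors against transgene-free ganglia the number of the 10 genes past the threshold was 7, with 6 to 8 over the alternatives and 7 to 8 with a library left out. It was 6 against MYCN wild-type ganglia (5 to 7, and 5 to 7 with a library left out) and 5 against MYCN ganglia labelled het (4 to 7, and 4 to 6). It was 0 for MYCN against transgene-free wild-type ganglia, 0 to 1 with a library left out, and 0 under every alternative in the other 4 comparisons. No gene past the threshold changed direction under any alternative. With the replicate number as a block, 7, 6 and 5 genes passed in the 3 tumor comparisons and 0 in the others, and the calls over all genes for MYCN against transgene-free wild-type ganglia went from 156 to 0. Correlations between samples of the same number ran from -0.315 to 0.319. They were 0.148 to 0.319 for the 4 pairs of transgene-free wild-type ganglion and tumor, but not over 0.1 for every pair in any comparison made, so the numbers were not taken to pair samples. Some values that did not pass changed sign. Fosl2 in tumors against transgene-free ganglia was -0.085 with a depth term, -0.26 and -0.28 with limma at pseudocounts of 1 and 0.1, and -0.12 to 0.26 with a library left out, negative without tumor replicate 4. Against MYCN ganglia labelled het it was -0.32, -0.24 and -0.26 under the same settings. Fn1 against MYCN ganglia labelled het was -0.0087 with upper-quartile normalization, -0.0023 with a minimum of 10 counts in every library, -0.0038 with DESeq2, -0.58 with the replicate block, -0.42 with a depth term, -0.68 and -0.69 with limma, and -0.43 to 0.28 with a library left out. Wwtr1 for MYCN against transgene-free wild-type ganglia was -0.89 to 0.15 with a library left out, positive without MYCN wild-type replicate 1 or transgene-free wild-type replicate 3. The cause of these changes was not tested. Snai2, with 5 to 11 counts in tumors, was -1.48 with limma at a pseudocount of 1 beside -3.13, since the pseudocount exceeds its level there. With limma on log2(TPM + 1), which changed the test and the transform as well as the scaling, the split of calls over all genes moved. Against MYCN wild-type ganglia it went from 2340 higher and 3415 lower to 1161 and 4969. Against those labelled het it went from 3668 and 3914 to 2243 and 5752. Twist1, with 1 to 25 counts, and Snai2 had few counts in tumors.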
